A study of Mus musculus with 9 samples.

Results

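Gene expression was compared between the brains of mice given a baculoviral vector purified by high-speed centrifugation (HS) and the brains of mice given a mock preparation. The comparison uses 6 of the 9 arrays of the series, 3 from HS mice and 3 from mock mice, chosen by their labels, and every probe set that is not a control. All mice were adult male BALB/c mice with an intact immune system, and each array holds RNA from 1 mouse. HS mice received BV-HSVtk, a baculovirus carrying the herpes simplex virus thymidine kinase gene, as 100000000 viral particles in 10 µL into the striatum of each side. Mock mice received culture medium of Sf9 insect cells that held no baculovirus and had been taken through membrane chromatography and high-speed centrifugation (MC+HS). The vector and the purification therefore differ together between HS and mock, and their parts in a difference cannot be told apart. Tissue around the injection sites was taken on day 2. The remaining 3 arrays, from mice given MC+HS-purified vector, entered the fit only to estimate the spread between arrays.

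Baculoviruses infect insects, and in mammalian cells they enter and are sensed without producing progeny. Their DNA and envelope are recognised by innate immune sensors, and interferons then switch on a wide set of antiviral genes in nearly every cell type of the tissue. In the brain, microglia, astrocytes and the endothelium of small vessels respond to such signals within days, each with its own genes, and the endothelium also controls which blood cells enter.

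The array of HS replicate 1 was unlike the rest, so each result is given with it and without it. Its median correlation with the other arrays was 0.805, against 0.972 to 0.982 for the others. Its log2 signals had a standard deviation of 1.54 over probe sets, where the others had 2.17 to 2.39. Its ratio of the spiked bioD to bioC control was 0.677, against 3.35 to 3.67, and its Gapdh 3′ to 5′ ratio was 2.00, against 0.865 to 0.932. Its signals were compressed: the median difference from the mock mean was 0.06 on the log2 scale in the quartile of probe sets dimmest on the mock arrays and -1.4 in the brightest quartile. The same medians were -0.02 to 0.09 across the quartiles for HS replicate 3 and -0.0046 to 0.03 for HS replicate 2. For bright genes, this compression and a change of the gene cannot be told apart on HS replicate 1. Median signals ran from 147 to 263 over the 9 arrays before the medians were aligned.

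On all arrays, 211 of 28257 probe sets were higher in HS than in mock (0.747%) and 8 were lower (0.0283%) by limma at an adjusted p under 0.05. With each gene represented by its brightest probe set, 119 of 13331 genes were higher (0.893%) and 5 were lower (0.0375%). Without HS replicate 1, 830 probe sets were higher (2.94%) and 100 were lower (0.354%), and 504 genes were higher (3.78%) and 52 were lower (0.39%). All 119 rises and all 5 falls called on all arrays were called in the same direction without HS replicate 1. Under quantile normalization the split without HS replicate 1 was 798 higher and 227 lower probe sets, so the share of falls among the calls depends on the scaling. Leaving out HS replicate 2 or 3 as well as HS replicate 1 gave 489 and 351 higher and 34 and 29 lower probe sets, and leaving out mock replicate 1 with HS replicate 1 gave 621 higher and 59 lower. From the all-array counts, leaving out mock replicate 1, HS replicate 3, HS replicate 2 or mock replicate 3 gave 63, 69, 73 and 83 higher probe sets, any 1 of the MC+HS arrays 115 to 127, and the lower ones ranged from 0 to 6 except without HS replicate 1. Weighting the arrays by their quality gave 4017 higher and 3759 lower probe sets on all arrays, from a weight estimation that stopped before it converged. A set of 134 genes called without HS replicate 1 joined those chosen by the naming rule and all called members of lists outside the immune ones. Of these, 57 lost the call without HS replicate 3 as well and 44 without HS replicate 2. Of 49 chosen by the naming rule and called on all arrays, 43 lost the call with only the HS and mock arrays. Of the same 49, 22 to 25 lost it when HS replicate 2 or 3 or mock replicate 1 or 3 was left out. List counts that moved by over 1.5 times in the same way are given with each list, from fits that leave out HS replicate 1 and 1 further HS or mock array. Where a list count has no share beside it, the shares over all genes without HS replicate 1 were 3.78% higher and 0.39% lower.

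**Figure D1:**
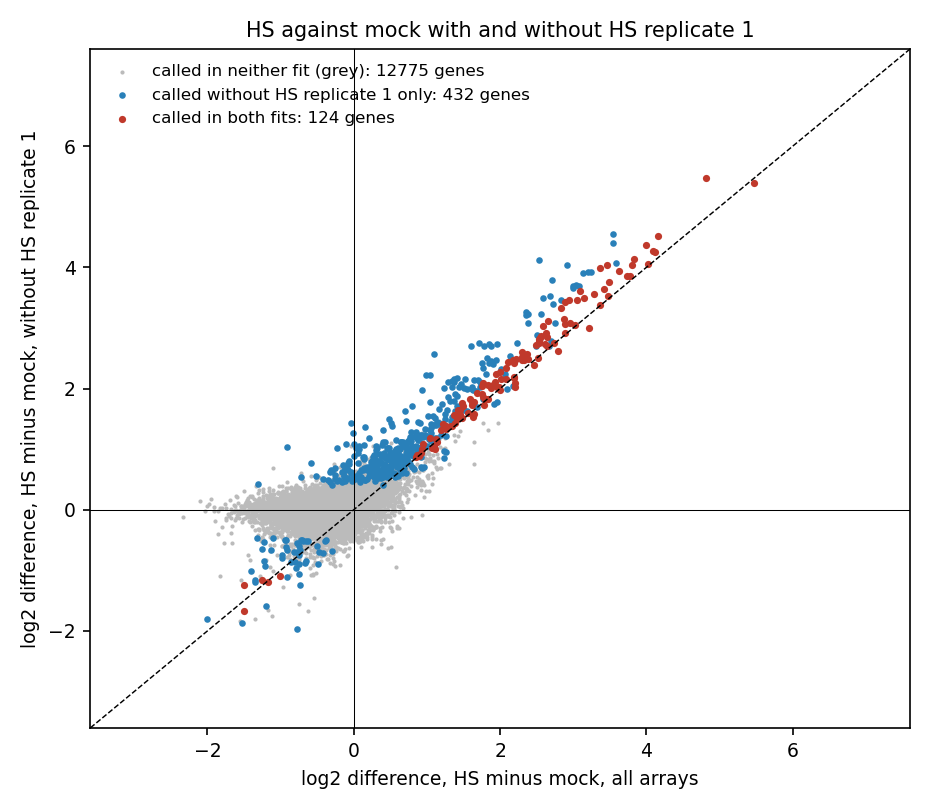
Each point is a gene, with the log2 difference of HS minus mock on all arrays across and without HS replicate 1 upwards. The dashed line marks equal values, and colour marks the fits in which limma called the gene. The 124 genes called in both fits lie near the line, and many of the 432 genes called only without HS replicate 1 lie above it.

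Most genes moved little. Without HS replicate 1, 12220 of 13331 genes (91.67%) lay within 0.5 of 0 on the log2 scale, and the median difference was 0.05. A single gene's difference carried a median 95% interval of 0.30 on either side without HS replicate 1 and of 0.64 with it. The 504 called rises comprised 139 of over 2, 160 of 1 to 2, 190 of 0.5 to 1 and 15 smaller ones. Of the 52 called falls, 15 exceeded 1, and the median called fall was -0.75, against a median called rise of 1.15. At an unadjusted p under 0.05, 2171 genes differed without HS replicate 1 and 874 with it, and without it 12.4% of genes were higher and 3.86% lower by that measure.

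The large rises were led by immune genes and serve here only as a frame. Without HS replicate 1, 42 of 45 interferon-stimulated genes rose, with a list median of 2.57, and 18 of them rose on all arrays. The same test called 24 of 31 genes of the interferon-induced GTPases, MHC and antigen presentation, 32 of 42 chemokines, cytokines and their receptors, and 18 of 26 genes of cell death, complement and effector functions. Without HS replicate 3 as well, 19 of the 42 chemokines, cytokines and receptors rose. Mock replicate 2 stood above the other mock arrays in these lists. Its median deviation over the interferon-stimulated genes was 0.76 from the mock mean, against -0.36 and -0.38 for mock replicates 1 and 3. Leaving out that array as well as HS replicate 1 gave 604 higher and 45 lower genes.

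**Figure D2:**
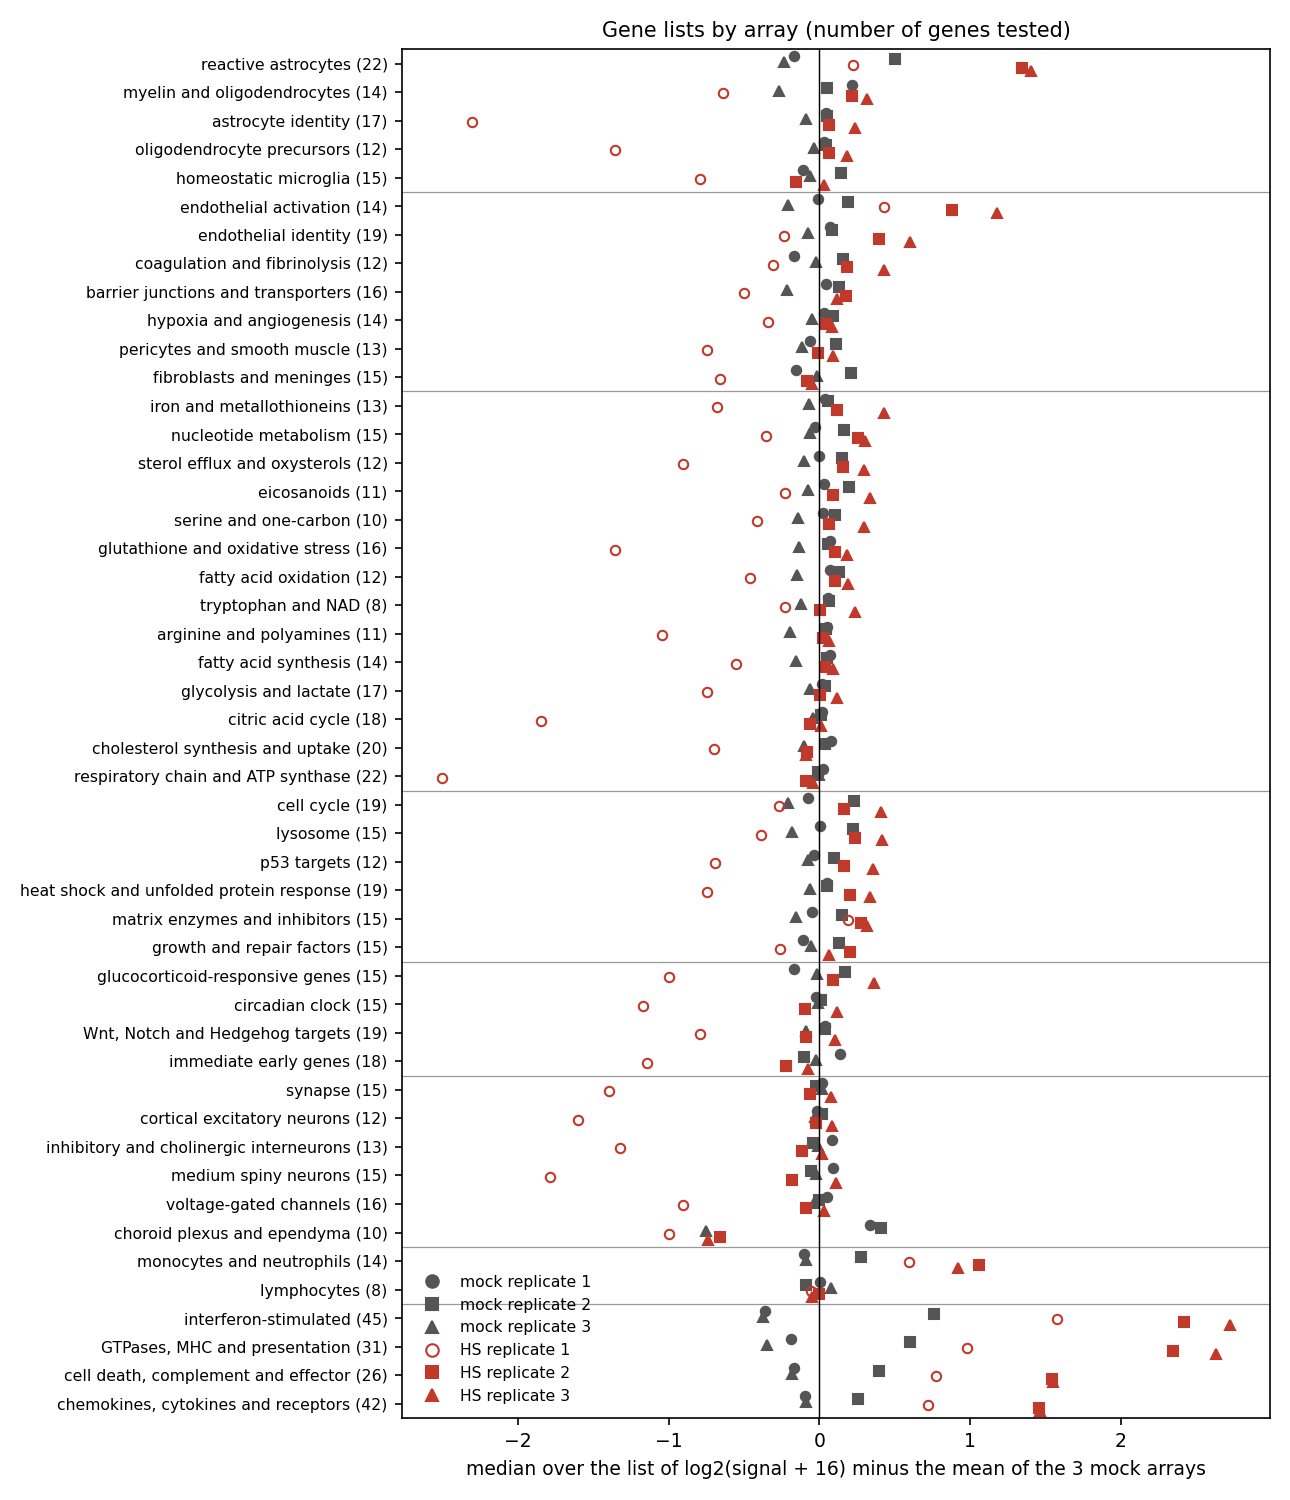
Each point is the median, over the tested genes of a list, of an array's log2(signal + 16) minus the mean of the 3 mock arrays. Grey points are mock arrays, red points are HS arrays and open red circles are HS replicate 1. HS replicates 2 and 3 stand right of the mock arrays in the immune lists, the reactive astrocyte list and both endothelial lists, and HS replicate 1 lies far to the left in lists of bright genes such as the respiratory chain.

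Falls were few, and the 15 largest without HS replicate 1 included Fcrls and Gpr34, genes of resident microglia, and Fmod of the fibroblast and meningeal list. The gene whose fall was called in both fits with the brightest signal was Arap2, an activator of GTPases of the Arf family. Its log2 signals were 11.34, 11.32 and 11.13 on mock replicates 1 to 3 and 10.13, 9.48 and 9.69 on HS replicates 1 to 3. All 3 HS arrays lay below all 3 mock arrays, and Arap2 fell by 1.68 ± 0.12 without HS replicate 1 (standard error, limma adjusted p = 2.78e-05) and by 1.5 with it (adjusted p = 0.0303). A second probe set of the gene read -1.34. Serpinb1a, an inhibitor of neutrophil proteases, had signals of 8.40, 8.10 and 8.24 in mock and 6.22, 7.07 and 6.94 in HS, again without overlap, and fell by 1.25 ± 0.16 (limma adjusted p = 0.00103). AW047730, which the array names only by this code, read -1.09 without HS replicate 1 and -1.01 with it, called by limma in both.

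Of 15 tested genes that mark unstimulated microglia, 4 fell without HS replicate 1, against 0.39% of all genes. Fcrls, an Fc receptor-like gene of microglia, gave 8.59, 9.27 and 8.42 on the mock arrays and 7.92, 6.90 and 6.89 on the HS arrays. HS replicate 1 lay closest to mock, and all 3 HS arrays were below all 3 mock arrays. Fcrls fell by 1.87 ± 0.26 without HS replicate 1 (limma adjusted p = 0.00201) and read -1.53 with it (adjusted p = 0.125). Gpr34, a receptor for lysophosphatidylserine, gave 9.03, 9.37 and 9.28 in mock and 7.76, 8.10 and 8.05 in HS. It was the only member of its list called on all arrays, where it fell by 1.26 (limma adjusted p = 0.0125), and it fell by 1.15 without HS replicate 1. Siglech, a sialic acid-binding lectin, fell by 0.97 ± 0.16 (limma adjusted p = 0.00526). P2ry12, the purine receptor with which resting microglia sense injury, gave 9.35, 9.48 and 9.59 in mock and 8.59, 8.79 and 8.82 in HS and fell by 0.67 ± 0.13 (limma adjusted p = 0.0141).

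The other 11 tested genes of that list did not pass. Csf1r, the receptor that microglia need to survive, read -0.04, the fractalkine receptor gene Cx3cr1 -0.34, Trem2 -0.64 and Tmem119 0.35 without HS replicate 1. Over the 15 tested genes the median was -0.04, against 0.05 over all genes. In a bulk sample, fewer cells of a type and less RNA per cell cannot be told apart. Markers of monocytes and neutrophils moved in the same arrays: 6 of 14 rose, against 3.78% of all genes. Among them were Chil3, S100a8, S100a9 and Ccr1. The summed signal of the 14 markers was 3352 to 5696 on the mock arrays and 4476 on HS replicate 1. It was 9880 to 10052 on HS replicates 2 and 3. The part of these cells in the microglial values was not tested. Of 8 lymphocyte genes Nkg7, a granule protein of killer cells, rose by 2.14, and red blood cell genes were too dim to be tested. Mrc1, a marker of macrophages at the brain's borders, read -0.83 and was not called. With HS replicate 3 also left out, 2 of the 15 microglial genes were lower, and with mock replicate 2 also left out, 10 of the 14 monocyte and neutrophil genes were higher.

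Falls outside microglia included a pair from the fibroblast and meningeal list. Fmod, fibromodulin, a small proteoglycan that binds collagen fibrils, gave 9.04, 9.75 and 9.57 in mock and 8.29, 8.16 and 8.37 in HS, with no overlap. It fell by 1.19 ± 0.19 without HS replicate 1 (limma adjusted p = 0.00432) and by 1.18 with it (adjusted p = 0.0356), and all of its other probe sets also read below 0. Igf2, a growth factor made by the meninges and choroid plexus, gave 10.06, 10.48 and 10.15 in mock and 9.57, 9.34 and 9.39 in HS and fell by 0.87 ± 0.15 (limma adjusted p = 0.00863). From the same list 3 genes rose: Aldh1a2, an enzyme of retinoic acid synthesis, by 1.23, the proteoglycan Dcn by 1.04 and its relative Bgn by 0.52. The collagens Col1a1 at -0.57 and Col3a1 at -0.02 were not called. The 3 rises and 2 falls of this list became 0 and 0 without HS replicate 2 as well, 1 and 1 without HS replicate 3, 1 and 2 without mock replicate 1, 5 and 2 without mock replicate 2, and 2 and 3 without mock replicate 3.

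Ccdc153, a gene of ciliated ependymal cells, gave 8.48, 8.57 and 8.18 in mock and 6.65, 7.54 and 6.97 in HS and fell by 1.15 ± 0.25 without HS replicate 1 (limma adjusted p = 0.0322). It was the only called gene of 10 tested markers of choroid plexus and ependyma, whose median was -0.68, and the call was lost without HS replicate 3, mock replicate 1 or mock replicate 2 as well (limma adjusted p = 0.39, 0.0998 and 0.0725). Without mock replicate 3 as well, 5 of the 10 were lower. These markers varied among the mock arrays themselves. Their summed signal was 15326 and 15947 on mock replicates 1 and 2 but 2375 on mock replicate 3, against 3471, 10295 and 7977 on the HS arrays. Ttr, the transthyretin made by choroid plexus, ran from 9.31 to 13.56 over the mock arrays alone. The part of choroid tissue in the falls of Ccdc153 and Igf2 was not tested.

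The remaining large falls were less even. Krt78, a keratin, gave 8.76, 5.25 and 5.12 on the HS arrays against 6.68, 7.43 and 7.34 in mock, so that HS replicates 2 and 3 lay below every mock array and HS replicate 1 above them. It read -1.97 without HS replicate 1 (limma adjusted p = 0.00441) and -0.78 with it (adjusted p = 0.67). BE949265 read -1.25, with HS replicate 1 at the top of the mock arrays. Fn3krp, a kinase that removes sugars from proteins, read -1.07, with HS replicate 1 among the mock arrays. Gh, growth hormone, varied by over 1 within mock, at 6.83, 8.11 and 7.48, and gave 5.05, 5.03 and 6.32 in HS, with limma adjusted p = 0.0499 without HS replicate 1. Actl9, an actin-like gene, read -1.60 and Pnpla5, a lipase, -1.11, with all HS values of Pnpla5 below mock. D2hgdh, a mitochondrial enzyme that clears D-2-hydroxyglutarate, read -1.19 by its brightest probe set and 0.71 by the other, so its direction depends on the probe set. Ccr6, a chemokine receptor, read -1.02 ± 0.12 (limma adjusted p = 7.88e-04), and HS replicate 1 read lower still.

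Across the 52 falls, HS replicate 1 lay below every mock array in 44 and above every mock array in 5. The compression of that array lowers bright genes, so its place below mock is no independent support. Over all tested genes, the HS arrays other than HS replicate 1 lay below every mock array in 1554, and all HS arrays in 1225. HS replicate 1 thus lay below mock for most genes of that kind, called or not. The 44 therefore do little to set the falls apart from other genes. No matching count is given for the 5. By mock mean, 0 of the 52 falls but 91 of the 504 rises lay under the 40th percentile of the array, where a fold depends on the pseudocount. A probe set was kept only where at least 3 arrays placed it above that percentile. A gene dim in mock was thus tested mainly where its other arrays were higher, so the filter shapes the difference between these counts. Of the falls, 15 had several tested probe sets, and in 3 of those another read above 0. Among smaller falls chosen after their values were seen were Cirbp, a cold-inducible RNA-binding protein, at -0.85 ± 0.10 (limma adjusted p = 7.02e-04), and Dio2, the deiodinase with which astrocytes activate thyroid hormone, at -0.61 ± 0.12 (limma adjusted p = 0.0147). Ccl17, a chemokine, read -0.90 (limma adjusted p = 0.0489), and HS replicate 1 lay above mock for it.

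**Figure D3:**
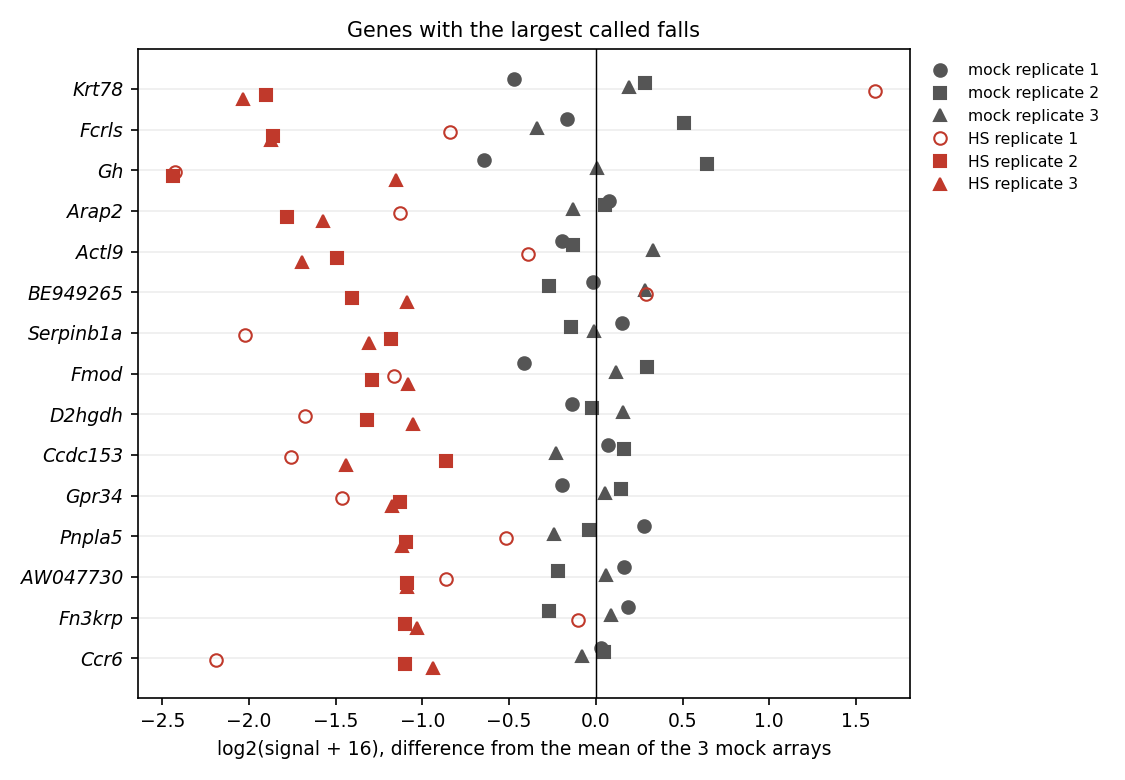
Each row is one of the genes with the largest called falls, and each point an array's log2(signal + 16) minus the mean of the 3 mock arrays. Grey points are mock, red points HS and open red circles HS replicate 1. HS replicates 2 and 3 lie left of every mock array in all rows, and HS replicate 1 lies right of the mock mean for Krt78 and BE949265.

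Of 22 genes known to rise in reactive astrocytes, 17 rose without HS replicate 1, against 3.78% of all genes, with a list median of 1.39, and 2 rose on all arrays. Without mock replicate 2 as well, 19 of 22 rose. Like the other lists, this list was chosen with earlier results of these data known. The samples are bulk tissue, and which cells gave these rises was not tested. Osmr, the receptor for oncostatin M, gave 7.65, 8.24 and 7.53 in mock and 8.79, 9.33 and 9.57 in HS, all HS arrays above mock, and was called in both fits, at 1.64 without HS replicate 1 and 1.42 with it. Steap4, a metalloreductase, read 3.43 and 2.88 in the same fits, from a dim mock level, so its size depends on the pseudocount. Gfap, the intermediate filament of astrocytes, gave 10.25, 11.35 and 10.21 in mock and 9.82, 11.97 and 12.18 in HS. Mock replicate 2 was the highest mock array by over 1, HS replicate 1 lay below all of them, and Gfap rose by 1.47 ± 0.27 without HS replicate 1 (limma adjusted p = 0.0121), while its value with it was 0.72 (adjusted p = 0.635). Without HS replicate 3 as well, 11 of the 22 rose.

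The rises of Serpina3n, a protease inhibitor, of Cp, the ferroxidase ceruloplasmin, and of Ptx3, a pattern-recognition protein, were 2.46, 1.99 and 3.40 without HS replicate 1. Lcn2, an iron-sequestering lipocalin, rose most in the list, by 4.13 ± 0.58 (limma adjusted p = 0.0019), with mock values spread from 7.18 to 10.01. Nes at 0.17, Fkbp5 at 0.31 and Cd14 at 0.58 were among the 5 genes that did not pass.

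Of 17 tested genes that define astrocytes at rest, 3 rose without HS replicate 1, against 3.78% of all genes. The list median was 0.15 in that fit, and 0 were called on all arrays, where it was -0.65. Sox9, their lineage transcription factor, rose by 0.79 ± 0.18 without HS replicate 1 (limma adjusted p = 0.0419), Aldh1l1, a folate enzyme, by 0.72, and Aqp4, the water channel of astrocyte endfeet, by 0.55. The other probe set of Aldh1l1 read 0.18. Aqp4 gave 11.56, 11.81 and 11.32 in mock and 10.07, 12.08 and 12.15 in HS, and its value with HS replicate 1 was -0.13. The glutamate transporter gene Slc1a2 at -0.09, glutamine synthetase Glul at 0.06, the gap junction gene Gja1 at 0.15 and S100b at -0.27 did not pass. With 1 further array left out, 0 of the 17 rose without HS replicate 2, HS replicate 3 or mock replicate 1, and 1 without mock replicate 3.

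Oligodendrocyte genes gave 1 call. Cldn11, the tight-junction protein of myelin, rose by 0.50 ± 0.12 without HS replicate 1 (limma adjusted p = 0.0448), from 11.64, 11.59 and 11.26 in mock to 9.71, 11.96 and 12.04 in HS. The other 13 tested genes of myelin did not pass, among them Mbp at 0.02, Mog at 0.03 and Sox10 at 0.62, and the list median was 0.26. None of 12 genes of oligodendrocyte precursors was called. At an unadjusted p under 0.05, 1 was higher, against 12.4% of all genes, with Pdgfra at 0.20 and Vcan at 0.38. Hes5, a target of Notch signalling in neural progenitors and astrocytes, fell by 0.54 ± 0.13 (limma adjusted p = 0.045) and was the only call among 19 targets of Wnt, Notch and Hedgehog signalling. Both single calls were lost without HS replicate 2, HS replicate 3 or mock replicate 2 as well, that of Cldn11 also without mock replicate 3, that of Hes5 also without mock replicate 1, and each without MC+HS replicate 2 or 3. The limma adjusted p then lay between 0.0514 and 0.382 for Cldn11 and between 0.0554 and 0.363 for Hes5.

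Without HS replicate 1, 9 of 14 genes of endothelial activation, 3 of 19 that define endothelium and 2 of 16 for barrier junctions and transporters rose, where 3.78% of all genes did. Selp, P-selectin, which slows leukocytes on activated endothelium, gave 6.34, 6.75 and 6.02 in mock and 8.92, 8.92 and 8.84 in HS. The 3 HS arrays lay within 0.1 of each other and well above mock, and Selp rose by 2.51 ± 0.22 without HS replicate 1 (limma adjusted p = 9.52e-05) and by 2.52 with it (adjusted p = 0.00168). Icam1, the adhesion molecule for leukocyte integrins, gave 7.35, 7.49 and 6.90 in mock and 8.69, 9.39 and 9.67 in HS, without overlap, and rose by 2.28 and 2.00 in the same fits. Ch25h, which makes 25-hydroxycholesterol, rose by 2.11 and 1.94. Vcam1, a ligand of the integrin VLA-4, gave 9.69, 9.96 and 9.62 in mock and 9.73, 10.88 and 11.05 in HS. HS replicates 2 and 3 stood above all mock arrays and HS replicate 1 among them, so Vcam1 rose by 1.21 ± 0.13 only without HS replicate 1 (limma adjusted p = 4.30e-04).

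The endothelial activation list had a median of 1.05 with 9 rises and 1 fall, and Selp, Ch25h and Icam1 were the 3 called on all arrays. Lrg1, a glycoprotein of inflamed vessels, rose by 1.82, Upp1, uridine phosphorylase, by 1.70, Ackr1, the chemokine carrier of venules, by 0.92 and Cd34 by 0.54. The fall was Apln, the tip-cell peptide apelin. Its mock signals were 9.33, 9.33 and 9.34, HS replicates 2 and 3 gave 8.54 and 8.76, and HS replicate 1 gave 9.79, above mock. Apln read -0.68 without HS replicate 1 (limma adjusted p = 0.0381) and -0.30 with it (adjusted p = 0.665). With any 1 further HS or mock array left out, the list held 6 to 9 rises and 0 falls. Angpt2 at 0.41 and Vwf at 0.55 did not pass.

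Among genes that define endothelium, Cldn5, the main claudin of the blood-brain barrier, gave 10.76, 10.74 and 10.47 in mock and 10.72, 11.68 and 11.89 in HS. HS replicates 2 and 3 lay about 1 above every mock array and HS replicate 1 among them. Cldn5 rose by 1.13 ± 0.12 without HS replicate 1 (limma adjusted p = 3.47e-04) and read 0.77 with it (adjusted p = 0.635). Cdh5, VE-cadherin, rose by 0.84 and Esam, an adhesion molecule of endothelial junctions, by 0.80, while Itm2a, a membrane protein of brain endothelium, fell by 0.53 ± 0.12 (limma adjusted p = 0.042). That made 3 rises and 1 fall among 19 tested genes, 17 of which read above 0, with a median of 0.54. At an unadjusted p under 0.05, 14 of the 19 were higher, against 12.4% of all genes. Without HS replicate 3 as well, 1 of the 19 rose, and the fall was lost when any further HS or mock array except mock replicate 2 was left out. The uncalled members included Pecam1 at 0.73, Tie1 at 0.80, Kdr at 0.44 and the glucose transporter gene Slc2a1 at 0.35.

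Of 16 genes for barrier junctions and transporters, Lsr, a protein of tricellular junctions, rose by 1.22 ± 0.25 (limma adjusted p = 0.0194), and Tjp1, the scaffold ZO-1, by 0.50 ± 0.12 (limma adjusted p = 0.0412). Ocln at 0.49, the transferrin receptor gene Tfrc at -0.10 and Slc22a8 at -0.51 did not pass, and the list median was 0.12. Col4a1, a chain of basement membrane collagen, gave 10.07, 10.33 and 10.13 in mock and 10.16, 11.11 and 11.38 in HS and rose by 1.07 ± 0.12 (limma adjusted p = 4.20e-04). Mmrn2, a matrix protein deposited by endothelium, was called in both fits, at 0.90 and 0.87, with all 3 HS arrays between 7.92 and 8.0 and all mock arrays at 7.18 or less. None of 13 genes of pericytes and smooth muscle was called. At an unadjusted p under 0.05, 1 was higher, against 12.4% of all genes, with Pdgfrb at 0.26, Acta2 at -0.14 and Des at -0.53. With 1 further array left out, 0 of the 16 rose without HS replicate 2, HS replicate 3 or mock replicate 1, and 1 without mock replicate 3.

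Of 14 tested genes of hypoxia and angiogenesis, 1 fell and 1 rose without HS replicate 1, against 0.39% and 3.78% of all genes. Vegfa, the main growth factor for vessels, gave 9.38, 9.14 and 9.69 in mock and 8.55, 8.66 and 8.42 in HS, all HS arrays below all mock arrays, and fell by 0.86 ± 0.17 without HS replicate 1 (limma adjusted p = 0.0154). With it the value was also -0.86 but did not pass (adjusted p = 0.109). Angptl4, an inhibitor of lipoprotein lipase, rose by 0.86 (limma adjusted p = 0.0165), and the other 12, such as Adm at 0.71 and Pfkfb3 at 0.12, did not pass. Of 12 genes of coagulation and fibrinolysis, 2 rose without HS replicate 1, against 3.78% of all genes. Fgl2, a membrane prothrombinase, rose by 2.08 without HS replicate 1 and 1.76 with it. Anxa2, a plasminogen-binding annexin, rose by 1.51 without HS replicate 1, and its other probe set read 0.24. Thbd at 0.15, F3 at 0.18 and Plat at 0.37 did not pass. Without HS replicate 2 or 3 as well, 0 of the 14 hypoxia and angiogenesis genes were called.

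**Figure D4:**
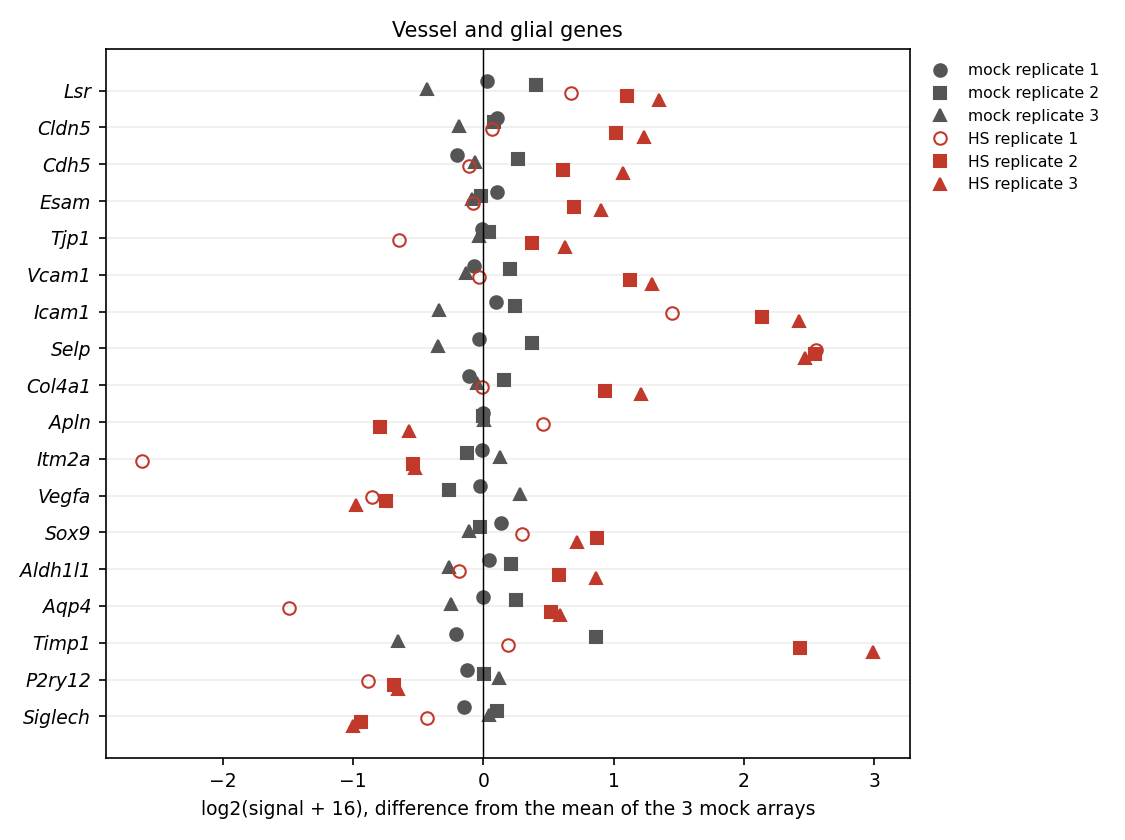
Each row is a vessel or glial gene, and each point an array's log2(signal + 16) minus the mean of the 3 mock arrays. Grey points are mock, red points HS and open red circles HS replicate 1. The 3 HS arrays coincide for Selp, while for Cldn5, Vcam1 and Col4a1 HS replicate 1 sits with the mock arrays and the other HS arrays about 1 to the right.

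Promoter windows of RefSeq genes (GRCm38.p6, 250 bases before to 50 after the start site) were searched for short motifs on both strands. The interferon element core GAAANNGAA, where N is any base, was found in 8.47% of the 10730 tested genes with a window, in 32% of the rises over 1.5 on the log2 scale, in 12.4% of the modest rises outside the immune lists and in 4.35% of the falls. The GAS-like motif TTCNNNGAA, bound by STAT factors, was found in 8.2%, 18%, 12.4% and 6.52% of the same sets. The NF-kB-like motif GGGNNTTCC gave 8.43%, 12%, 8.58% and 4.35%, and the E-box CACGTG 11.4%, 2%, 8.58% and 13%. The sets held 150, 233 and 46 genes with a window besides the full set, so the share of falls rests on 2 genes for the interferon core. Matches of the interferon core and the GAS-like motif overlapped in 18 genes. A match is a description of the letters and not a bound site.

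The windows of 4 genes are printed to show where the letters lie, with matches to the interferon core or the GAS-like motif in capitals. Aida, an antagonist of JNK signalling, and Pnp, an enzyme of purine salvage, are modest rises outside the immune lists, and Selp and Icam1 are the endothelial rises called in both fits. The match starts at position 135 of the window in Aida, 229 in Pnp, where it lies on the opposite strand, 260 in Selp, after the start site, and 209 in Icam1, which holds the GAS-like motif.
Aida, chr1:183296810-183297109, plus strand: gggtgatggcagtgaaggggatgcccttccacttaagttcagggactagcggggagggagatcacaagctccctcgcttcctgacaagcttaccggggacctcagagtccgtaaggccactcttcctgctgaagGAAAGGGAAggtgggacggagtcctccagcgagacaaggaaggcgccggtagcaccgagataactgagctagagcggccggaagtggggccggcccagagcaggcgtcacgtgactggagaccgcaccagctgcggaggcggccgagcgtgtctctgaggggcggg
Pnp, chr14:50944053-50944352, plus strand: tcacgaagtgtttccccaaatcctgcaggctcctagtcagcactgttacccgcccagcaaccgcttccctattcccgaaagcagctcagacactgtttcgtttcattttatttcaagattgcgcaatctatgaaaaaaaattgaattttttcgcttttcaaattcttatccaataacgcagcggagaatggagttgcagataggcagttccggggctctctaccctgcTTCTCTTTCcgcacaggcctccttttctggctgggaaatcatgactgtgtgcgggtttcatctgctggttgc
Selp, chr1:164115014-164115313, plus strand: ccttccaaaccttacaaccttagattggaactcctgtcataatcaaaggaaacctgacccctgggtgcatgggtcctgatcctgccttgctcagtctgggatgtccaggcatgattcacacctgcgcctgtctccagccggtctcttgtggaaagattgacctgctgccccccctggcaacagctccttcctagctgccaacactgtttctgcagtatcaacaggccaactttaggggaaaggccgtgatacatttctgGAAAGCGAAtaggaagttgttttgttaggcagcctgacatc
Icam1, chr9:21015690-21015989, plus strand: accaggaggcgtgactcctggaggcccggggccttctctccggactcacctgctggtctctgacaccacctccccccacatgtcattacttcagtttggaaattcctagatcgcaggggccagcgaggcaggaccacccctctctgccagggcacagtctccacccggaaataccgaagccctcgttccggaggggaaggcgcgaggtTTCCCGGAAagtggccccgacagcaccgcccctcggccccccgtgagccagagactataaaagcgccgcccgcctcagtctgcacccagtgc

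The core metabolic lists held no called gene. By limma at an adjusted p under 0.05, the fit without HS replicate 1 called 0 of 17 genes of glycolysis and lactate, 0 of 18 of the citric acid cycle, 0 of 22 of the respiratory chain and ATP synthase, 0 of 14 of fatty acid synthesis, 0 of 20 of cholesterol synthesis and uptake, 0 of 10 of serine and one-carbon metabolism and 0 of 13 of iron and metallothioneins. At an unadjusted p under 0.05, limma gave 3 higher genes in glycolysis, 3 in fatty acid synthesis, 3 in serine metabolism, 6 higher and 1 lower in the iron list, 1 higher and 4 lower in cholesterol synthesis, and 0 in the citric acid cycle and the respiratory chain. The shares over all genes by that measure were 12.4% higher and 3.86% lower. The iron list had a median of 0.38 without HS replicate 1. Respiratory chain genes lay between -0.15 and 0.08 without HS replicate 1, with a median of -0.07. They are among the brightest genes on the array, and their median was -2.51 on HS replicate 1, -0.09 on HS replicate 2 and -0.04 on HS replicate 3. Ndufa9, a subunit of complex I, gave 12.19, 12.13 and 12.06 in mock and 8.26, 12.003 and 12.06 in HS, so HS replicate 1 alone read low. The all-array median of -0.90 for this list therefore rests on that array.

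Cholesterol synthesis genes had a median of -0.07, with 12 of 20 below 0. Mvd at -0.45, Stard4 at -0.44 and Lss at -0.38 were the lowest, and Cyp51 read 0.16. In glycolysis, Ldha gave 0.03, Pkm 0.06 and Tpi1 0.07, while Hk2, an inducible hexokinase, gave 8.55, 8.76 and 8.38 in mock and 7.82, 9.18 and 9.11 in HS and read 0.58 without passing (limma adjusted p = 0.0626). With mock replicate 2 also left out, 3 of the 17 glycolysis and lactate genes passed, as did 1 lower cholesterol gene with mock replicate 3 left out and 1 lower iron gene with HS replicate 2 left out.

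Single enzymes at the edges of these pathways did rise without HS replicate 1. In nucleotide metabolism 4 of 15 rose, against 3.78% of all genes. Cmpk2, a mitochondrial nucleotide kinase, rose by 2.02 and Xdh, which makes uric acid, by 1.52. Pnp, purine nucleoside phosphorylase, rose by 1.08 and Samhd1, which degrades deoxynucleotides, by 1.04. The part of the interferon response in these rises was not tested. Pnp, with the interferon core in its promoter window, gave 11.12, 11.12 and 10.63 in mock and 8.81, 11.93 and 12.13 in HS, so HS replicate 1 lay far below mock and the other HS arrays above it, and Pnp read 0.00 on all arrays. Samhd1 had all 3 HS arrays above all mock arrays, at 9.77, 10.02 and 10.20 against 8.87, 8.88 and 9.46, though another of its probe sets read -0.49. Bst1, an enzyme that uses NAD, was called in both fits, at 2.74 and 2.53, from a mock level near the bottom of the array, so its size depends on the pseudocount. The other 7 tested genes of tryptophan and NAD metabolism did not pass, with Nampt at 0.52 and Ido1 at 0.28. Of the 15 nucleotide genes, 2 rose without HS replicate 2 as well and 1 without HS replicate 3.

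In sterol handling, 3 of 12 genes rose without HS replicate 1, against 3.78% of all genes. They were Ch25h, Apod, a lipid carrier of glia, and Npc2, which exports cholesterol from lysosomes. Apod gave 12.89, 13.13 and 12.79 in mock and 13.46, 13.59 and 13.75 in HS, all 3 HS arrays above mock, and rose by 0.73 ± 0.12 (limma adjusted p = 0.00421). Npc2 rose by 0.70 ± 0.15 (limma adjusted p = 0.0265), while Apoe read -0.13 and Abca1 0.33. Mgst1, a glutathione transferase of membranes, had the smallest p among modest rises outside the immune lists without HS replicate 1. It gave 10.00, 10.35 and 9.85 in mock and 7.11, 11.45 and 11.53 in HS, so HS replicate 1 lay nearly 3 below the mock arrays, and Mgst1 rose by 1.43 ± 0.13 without it (limma adjusted p = 1.52e-04) and read -0.03 with it. Without HS replicate 3 as well, 1 of the 12 sterol genes rose.

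Slc7a11, the cystine importer that feeds glutathione synthesis, rose by 0.98 and had all 3 HS arrays above mock. It was the only call among 16 genes of glutathione and oxidative stress, and Hmox1 at 1.03, Gclm at 0.05 and Nqo1 at -0.04 did not pass. Sat1, which acetylates polyamines, rose by 0.98, 1 of 11 genes of arginine and polyamines, and Acadl, a dehydrogenase of long fatty acids, by 0.51, 1 of 12 genes of fatty acid oxidation. Of 11 eicosanoid genes 3 rose, against 3.78% of all genes. Pla2g4a, which frees arachidonic acid, rose by 1.28, Alox5ap, needed for leukotrienes, by 1.23, and Ptgs2, cyclooxygenase 2, by 1.0. Ptgs2 gave 8.25, 7.80 and 8.31 in mock and 6.35, 9.22 and 9.01 in HS, again with HS replicate 1 below mock. Of the glutathione genes, 0 rose without HS replicate 2, HS replicate 3 or mock replicate 3 as well and 2 without mock replicate 2, where 1 polyamine gene also fell. The Acadl call was lost without HS replicate 2, HS replicate 3, mock replicate 1 or mock replicate 3, and 0 eicosanoid genes rose without HS replicate 2 or 3.

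Without HS replicate 1, 2 of 15 lysosomal genes and 2 of 19 chaperone genes passed, against 3.78% of all genes. At an unadjusted p under 0.05 by limma, 8 and 9 of them were higher, against 12.4% of all genes, and 0 were lower. Of 15 lysosomal genes, Ctsc, cathepsin C, rose by 1.66 and Lamp2, a membrane protein of the lysosome, by 0.71 without HS replicate 1, and the list median was 0.32. The count was 7 of 15 without mock replicate 2 as well, whose Ctsc signal of 11.46 exceeded those of mock replicates 1 and 3 by about 1. All 19 genes of heat shock and the unfolded protein response read above 0, with a median of 0.27, but only Hspa1b, an inducible Hsp70, at 0.89 and Hspa5, the chaperone BiP of the endoplasmic reticulum, at 0.64 passed. Hspa5 gave 11.70, 11.79 and 11.66 in mock and 9.52, 12.30 and 12.42 in HS, and a further probe set of it read -0.23. Ddit3 at 0.41, Atf3 at 0.54 and Xbp1 at 0.15 did not pass. Without HS replicate 2 or 3 as well, 0 genes of either list were called.

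**Figure D5:**
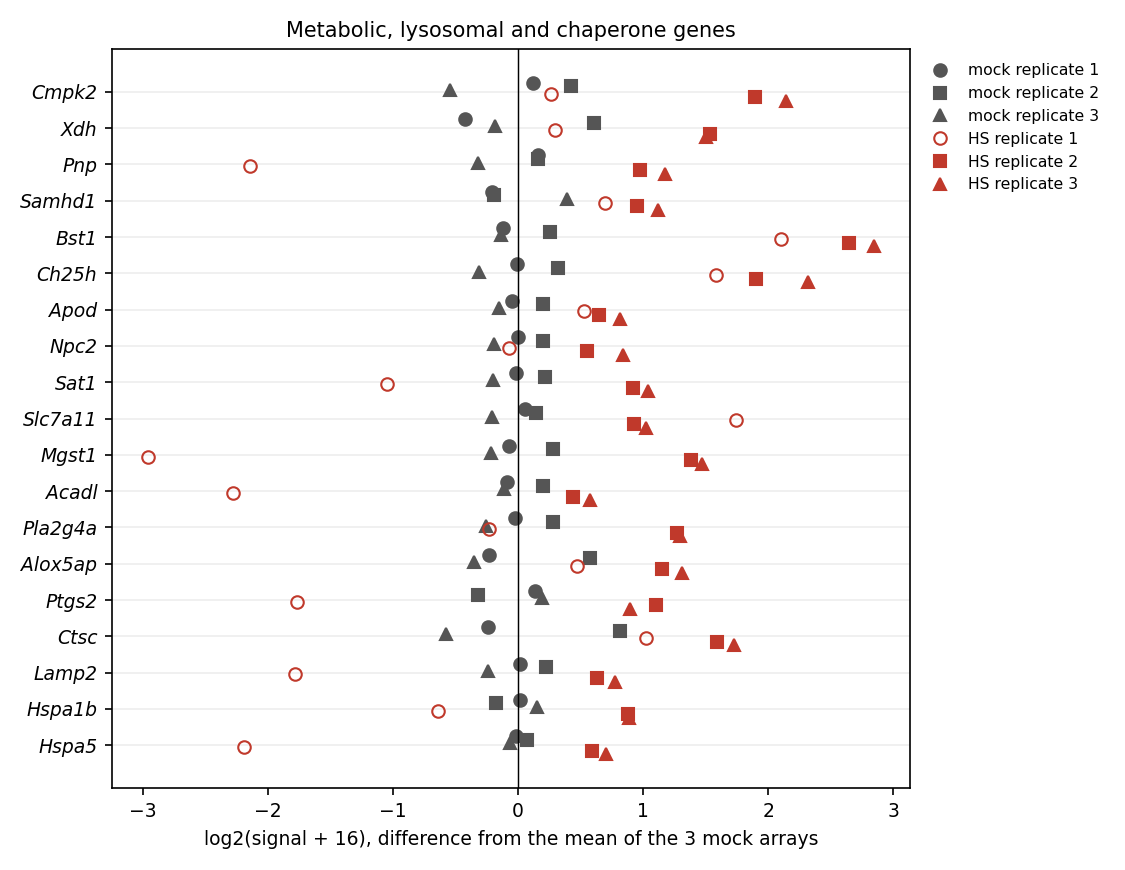
Each row is a metabolic, lysosomal or chaperone gene, and each point an array's log2(signal + 16) minus the mean of the 3 mock arrays. Grey points are mock, red points HS and open red circles HS replicate 1. HS replicates 2 and 3 lie right of every mock array in all rows, and HS replicate 1 lies left of every mock array for bright genes such as Pnp, Mgst1, Acadl and Hspa5.

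Genes of matrix turnover and repair gave a handful of rises. Timp1, an inhibitor of matrix proteases, gave 7.86, 8.94 and 7.41 in mock and 8.26, 10.50 and 11.06 in HS, and rose by 2.71 ± 0.34 without HS replicate 1 (limma adjusted p = 9.76e-04). HS replicate 1 lay among the mock arrays. The proteases Mmp3, Adamts1 and Adamts9 rose by 1.44, 1.37 and 0.95, which made 4 of 15 genes, against 3.78% of all genes. Mmp3 was also called on all arrays at 1.39. Tgfbi, a matrix protein induced by TGF-beta, rose by 1.82 and 1.79 in the 2 fits, and Igfbp5 by 0.50 without HS replicate 1, though its other probe set read -0.17. Among 12 p53 targets Cdkn1a, the cell cycle inhibitor p21, rose by 0.68 and Fas at 1.47 did not pass. Of 19 cell cycle genes 0 were called, and 4 were higher at an unadjusted p under 0.05, against 12.4% of all genes. Mki67 read 0.45 and Tk1 0.93. Without mock replicate 2 as well, 2 cell cycle genes and 2 p53 targets rose. Cdkn1a was also the only call among 15 genes that respond to glucocorticoids. Without HS replicate 3 as well, 1 of the 15 matrix genes and 0 growth factors, p53 targets or glucocorticoid genes rose. Of the growth factors, 1 rose without HS replicate 2, mock replicate 1 or mock replicate 3. The p53 targets gave 2 rises without HS replicate 2, and neither they nor the glucocorticoid genes gave any without mock replicate 1 or 3, while 2 glucocorticoid genes rose without mock replicate 2.

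Neuronal lists held 0 called genes. The test covered 15 genes of medium spiny neurons, the projection neurons of the striatum, 12 of cortical excitatory neurons, 13 of interneurons, 15 of the synapse and 16 voltage-gated channels, and their medians without HS replicate 1 lay between -0.05 and 0.03. At an unadjusted p under 0.05 limma gave 0 genes of medium spiny neurons, cortical neurons or the synapse, 1 higher and 2 lower of interneurons, and 1 in each direction among channels. Over all genes, 12.4% were higher and 3.86% lower by that measure. Striatal markers were bright on every array other than HS replicate 1. Ppp1r1b, the phosphoprotein DARPP-32, gave 11.92, 11.72 and 11.78 in mock and 9.51, 11.53 and 12.005 in HS, and Penk, which encodes enkephalin, 12.74, 12.62 and 12.70 in mock and 8.52, 12.35 and 12.62 in HS. The dopamine receptor genes Drd1 and Drd2 read 0.01 and 0.31. Of 18 immediate early genes, which follow neuronal firing, 14 read below 0 with a median of -0.16. None passed the adjusted test. At an unadjusted p under 0.05 by limma, 1 was higher and 6 were lower, against 12.4% and 3.86% of all genes. Without mock replicate 2 as well, 1 was called lower. Npas4 read -0.58, Fos -0.19 and Egr1 -0.01. The 15 circadian genes also gave 0 calls, with a median of 0.01 and 1 lower gene at an unadjusted p under 0.05.

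Modest rises outside the immune lists made up a large share of the calls. A gene in no immune list can still be an immune gene, as several of those named below are. Between 0.4 and 1.5 on the log2 scale, 306 called rises lay without HS replicate 1, 286 of them in no immune list, and 29 and 25 on all arrays. HS replicate 1 lay above every mock array in 101 of the 306 and below every mock array in 140. Over all tested genes, the HS arrays other than HS replicate 1 lay above every mock array in 3454, and all HS arrays in 642. These other HS arrays lay above mock in all 504 called rises. The share with HS replicate 1 also above was thus larger among the modest rises than among all such genes. Signal levels were not matched between these sets, and the compression depends on them. No matching count is given for the 140. Of the 306, 126 had several tested probe sets, and in 23 of those another read below 0. Of the 198 rises over 1.5, 96 were in the immune lists. The modest rises with the smallest p on all arrays were Slfn9, of the Schlafen family, at 1.09, Cd300lf, an inhibitory receptor of myeloid cells, at 1.35, and Ccrl2, a chemerin-binding receptor, at 0.93. Ccrl2 gave 7.42, 7.48 and 7.40 in mock and 8.23, 8.41 and 8.45 in HS (limma adjusted p = 0.0114 on all arrays). The HS arrays lay above the mock arrays for all of these.

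Next in that order were Ubd, a ubiquitin-like modifier, at 1.45, Mob3c at 1.48, Mmrn2, an endothelial matrix protein, at 0.87, the cadherin gene Cdh19 at 1.4, B430306N03Rik at 1.46, Serpinb9, an inhibitor of granzyme B, at 1.27, and Lcp2, an adaptor of lymphoid and myeloid receptors, at 1.07. Without HS replicate 1 the smallest p belonged to Mgst1, then Themis2, a signalling protein of myeloid cells, at 1.42, Aida at 1.11, the helicase gene Znfx1 at 1.37, Cldn5, and Srgn, a proteoglycan of secretory granules, at 1.26. Pla1a, a phospholipase, at 1.20, Col4a1, Clic4, an intracellular chloride channel protein, at 0.80, and Vcam1 followed. Clic4 gave 11.20, 11.28 and 11.20 in mock and 9.42, 11.96 and 12.10 in HS, a spread within mock of under 0.1 (limma adjusted p = 4.22e-04), and its value with HS replicate 1 was -0.07.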

How the data were processed

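Biotin-labelled cRNA from 9 mice, 3 per group, was hybridised to 1 array each. The authors deposited 1 linear intensity per probe set and array, and the submitters' processing notes name GCOS 1.4.0.036; the summary, scaling and genome build are not given in the sources used here. These deposited intensities were turned into log2(signal + 16) and array medians were aligned. After 64 control probe sets were dropped, a probe set was kept when at least 3 arrays placed it above their 40th percentile, as 28257 of 45037 were. A gene is its probe set with the highest mean, named by the platform annotation where it gives 1 symbol (34945 probe sets, 932 with several, 9160 with none, 34754 matched to RefSeq GRCm38.p6). Probe sets of near-identical relatives can share transcripts. No detection calls were used, and the number of arrays limits the precision.

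Groups were compared by limma 3.58.1, run under R 4.3.3 (lmFit, eBayes with trend, two-sided) on all 9 arrays and on the 8 without HS replicate 1, with Benjamini-Hochberg adjustment over probe sets, and called under 0.05. The second fit sets 2 HS mice against 3 mock mice. The fit was tested on simulated arrays with spreads taken without HS replicate 1, so that test does not cover the compression of this array. Fold changes are on the log2(signal + 16) scale and ± is the standard error.

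The members and the 49 gene lists (791 of 950 entries tested) were chosen with earlier results of these data known, and lists share genes. In each fit the rule for named genes took the 15 largest called falls, the 10 called rises of 0.4 to 1.5 in no immune list with the smallest p, and up to 4 called members of each list; other list members could be given with their values, and some named genes are not printed. Alternatives were other pseudocounts, filters, scalings, priors, weights, a replicate block, fewer arrays, each array left out and the median over a gene's probe sets. The list counts without HS replicate 1 and a further array were added after seeing the data.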

Additional observations from a re-analysis of the deposited data

How the results depend on the processing

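On all arrays the 211 higher probe sets became 129 with a filter at the 60th percentile, 4017 with array weights, whose estimation did not converge, 15 with only the HS and mock arrays, and 63 to 830 with each array left out. The 8 lower probe sets became 4 with no filter, 1 with no median alignment, 3759 with array weights, 0 with only the HS and mock arrays (483 at an unadjusted p under 0.05 by limma), 3 with the replicate block, and 0 to 100 with each array left out. The high ends are without HS replicate 1, and leaving out any other HS or mock array except mock replicate 2 gave at most 83 higher. Without HS replicate 1, the 830 higher probe sets became 4112 with no median alignment and 351 to 981 with a further array left out, lowest without HS replicate 3. The 100 lower probe sets became 32 with no median alignment, 227 with quantile normalization, 281 with array weights, and 29 to 143 with a further array left out, again lowest without HS replicate 3. With no median alignment the median of all genes moved from 0.05 to 0.49 without HS replicate 1, since HS replicate 3 was the brightest array.

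Within each of the 2 fits, no called gene chosen by the naming rule changed direction under an alternative. Without HS replicate 1 this also held for called members of the lists outside the immune ones, which the 134 below include. Many lost the call: of 49 on all arrays, 43 with only the HS and mock arrays and up to 25 with 1 array left out, and of 134 without HS replicate 1, up to 57 with a further array left out. Between the 2 fits the direction did change for some genes. Acadl, Aqp4, Cldn11, Clic4, Hspa5, Lamp2, Mgst1 and Srgn, called higher without HS replicate 1, read below 0 on all arrays. These uncalled all-array values turned positive with array weights and without HS replicate 1. The array weights value and the range with each array left out were Acadl 0.39 and -0.92 to 0.51, Aqp4 0.44 and -0.49 to 0.55, Cldn11 0.41 and -0.66 to 0.50, Clic4 0.72 and -0.54 to 0.80, Hspa5 0.57 and -0.80 to 0.64, Lamp2 0.56 and -0.57 to 0.71, Mgst1 1.30 and -0.79 to 1.43 and for Srgn 1.12 and -0.69 to 1.26.

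Deviations of same-numbered HS and mock arrays from their group means had correlations of -0.04, 0.09 and -0.09. The HS mean includes HS replicate 1, whose compression enters the deviations of all HS arrays. These values therefore cannot decide whether the replicate numbers pair the mice. The replicate block gave 145 higher probe sets on all arrays, and 854 higher and 121 lower without HS replicate 1. With 3 mice a group and 2 once HS replicate 1 is out, a modest change with a wide spread would not be called.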
